A study of Homo sapiens with 6 samples.

Results

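Long genes, defined as genes whose locus spans at least 300 kb from the first to the last base, were followed in 4HC-treated COV434 cells. The deposited gene table held 16798 genes, of which 15758 had a single chromosome entry, and 821 of these had an end minus start coordinate of at least 300000 bases. COV434 is an immortalized human cell line, with wild-type genotype and granulosa cell identity on its labels, and the 6 bulk RNA-seq samples were 3 controls and 3 samples exposed to 15 µM 4HC for 24 h. 4HC, or 4-hydroxycyclophosphamide, is the activated form of the alkylating drug cyclophosphamide. No vehicle is named for the controls, and whether the 3 samples of a group came from separate cultures is not stated, so p-values measure the spread between these samples, which may be technical.

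RNA polymerase II has to traverse a whole locus before a complete pre-mRNA is released, and the longest human genes take hours to transcribe. Cyclophosphamide metabolites form adducts and crosslinks on DNA that obstruct the polymerase, and a longer template offers more positions for such a lesion. Long human genes are enriched for roles in the nervous system, such as cell adhesion, axon guidance, synaptic scaffolds and ion channels, and several of the longest lie at common fragile sites, regions prone to breaks when replication is slowed. The question was whether expression of long loci changed differently under 4HC from that of shorter genes with a similar control level.

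The promoters of 4 long genes are shown because they introduce the loci to which the results return, a pair that fell and a pair that rose under 4HC. Each window holds 250 bases before and 50 bases after the outermost start that RefSeq gives for the gene in GRCh38.p14, written 5′ to 3′ on the strand of the gene with every CG dinucleotide in capitals. ROBO1, a SLIT receptor of axon guidance, lies at chr3:78597239-79767998 in the deposited table and its window at chr3:79767949-79768248 on the minus strand. EPHA6, an ephrin receptor, lies at chr3:96812527-97764738 and its window at chr3:96814344-96814643 on the plus strand. ASTN2, an astrotactin of neuronal migration, lies at chr9:116423112-117415057 and its window at chr9:117415008-117415307 on the minus strand. DIAPH3, a formin that builds actin filaments, lies at chr13:59570996-60163928 and its window at chr13:60163879-60164178 on the minus strand.
ROBO1: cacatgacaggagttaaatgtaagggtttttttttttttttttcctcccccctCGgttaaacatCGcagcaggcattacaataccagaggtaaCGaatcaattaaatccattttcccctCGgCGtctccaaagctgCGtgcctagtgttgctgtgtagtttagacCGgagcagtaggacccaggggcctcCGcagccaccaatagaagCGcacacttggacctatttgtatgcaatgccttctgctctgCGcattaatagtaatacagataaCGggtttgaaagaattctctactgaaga
EPHA6: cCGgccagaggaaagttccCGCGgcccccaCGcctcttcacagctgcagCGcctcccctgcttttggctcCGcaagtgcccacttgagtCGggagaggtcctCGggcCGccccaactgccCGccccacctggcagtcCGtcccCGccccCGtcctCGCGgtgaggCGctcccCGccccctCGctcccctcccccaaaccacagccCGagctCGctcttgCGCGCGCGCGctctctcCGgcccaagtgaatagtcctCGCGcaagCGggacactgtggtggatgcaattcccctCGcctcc
ASTN2: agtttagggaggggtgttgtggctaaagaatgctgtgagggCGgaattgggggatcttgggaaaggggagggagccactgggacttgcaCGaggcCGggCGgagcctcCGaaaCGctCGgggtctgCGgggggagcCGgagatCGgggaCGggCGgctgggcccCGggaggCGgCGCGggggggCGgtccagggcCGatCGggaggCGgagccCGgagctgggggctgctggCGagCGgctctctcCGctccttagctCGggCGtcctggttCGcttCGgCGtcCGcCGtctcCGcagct
DIAPH3: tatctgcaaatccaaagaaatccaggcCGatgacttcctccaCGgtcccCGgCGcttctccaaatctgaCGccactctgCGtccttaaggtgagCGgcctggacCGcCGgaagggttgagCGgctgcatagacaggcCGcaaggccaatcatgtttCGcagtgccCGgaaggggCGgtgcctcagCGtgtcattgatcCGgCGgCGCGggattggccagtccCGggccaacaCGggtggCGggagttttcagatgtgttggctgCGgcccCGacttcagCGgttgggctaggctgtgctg

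These windows differed widely in base composition, from 11 CG dinucleotides and 45.3% G+C in ROBO1 to 32 CG dinucleotides and 71.7% G+C in ASTN2. Among the 457 tested long genes with a promoter in the table the median G+C content was 64.7%, against 65.3% in the 9723 other tested genes. Of the 457 long genes with a promoter, the 101 called lower in the test of 4HC against control had a median of 62.7% and 22 CG dinucleotides. The 36 of the 457 called higher had 71.5% and 34. The same medians in the other genes were 65.0% and 26 for those called lower and 67.0% and 28 for those called higher. More than 1 start was listed for 47.7% of the tested long genes and for 28.6% of the other tested genes. The letters TATAAA stood on either strand in 6.56% of the long gene windows and 5.33% of the others, and CCAAT on either strand in 32.4% and 37.4%. Of all 35116 windows in the table, 11.5% held TATAAA and 34.6% held CCAAT, and of the 4 windows shown those of ROBO1, ASTN2 and DIAPH3 held CCAAT on at least 1 strand.

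The 821 long genes had a median span of 466 kb, while the other genes on a single chromosome had a median of 31.3 kb. The spans were checked against RefSeq, where 694 of the 821 also reached 300 kb and 127 did not, 46 of them being under 100 kb. Of the 821, 8 had a deposited span over 3 Mb, among them NDUFA10, a subunit of respiratory complex I, with a deposited span of 239.846 Mb and a RefSeq span of 132.9 kb. Results are therefore given for the 821 as deposited and, where it matters, for the 694 that RefSeq also places at 300 kb or more. The deposited counts summed to between 16133786 and 16702316 per sample. Granulosa markers were sparse in these cells, with FOXL2, FSHR and CYP19A1 at no more than 0.185 CPM (counts scaled to a library total of 1e+06) in any sample and 2 of the 9 listed markers, HSD17B1 and AMH, at a mean of 1 CPM or more.

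Long genes took a smaller share of all counts after 4HC. Their summed counts were 2.89%, 2.82% and 2.87% of the total in the 3 control samples and 2.62%, 2.62% and 2.69% in the 3 4HC samples, so the highest 4HC sample lay below the lowest control. The genes with RefSeq support for their length took 2.41%, 2.34% and 2.39% in control and 2.15%, 2.15% and 2.2% in 4HC, also without overlap. As these are bulk samples scaled to a common total, fewer cells that express a gene and less RNA per cell cannot be told apart.

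Of the 821 long genes, 544 had enough counts for a test. The other 277 were nearly silent, with a median of the control means of 0.103 CPM and a highest group mean of 0.854 CPM, and their mean was higher in control in 150 and higher in 4HC in 127. For each of the 12368 genes that passed the filter on low counts, 4HC was compared with control in the quasi-likelihood test of edgeR on TMM-normalized counts, and a gene was called at a Benjamini-Hochberg adjusted p under 0.05. Called higher in 4HC were 45 long genes, 8.27% of those tested, against 19.2% of all genes tested. Called lower were 122 long genes, or 22.4%, against 17.1% of all genes tested. DESeq2 called 29 long genes higher and 92 lower, and 121 of the 167 calls by edgeR were also made by DESeq2 in the same direction. The median log2 fold change, 4HC over control, was -0.09 for long genes, 0.00 for all genes tested and 0.01 for genes under 300 kb, and 68.6% of the long genes had a negative value against 48.3% of the shorter genes.

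The changes were small in size. At a fold change of 2 or more with an unadjusted p under 0.05, 2 of the 544 tested long genes were higher and 3 were lower. Of all 12368 genes tested, 126 were higher (1.02%) and 16 lower (0.129%), or 1.15% in either direction. All 3 4HC samples lay below all 3 controls in 176 of the long genes (32.4%) and above them in 64 (11.8%), where over all genes tested these shares were 21.9% and 23.4%. The middle range of the long genes, from the lower to the upper quartile, ran from -0.26 to 0.05 on the log2 scale, and that of shorter genes from -0.11 to 0.15.

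Long genes with RefSeq support for their length had the lower median. In the 453 of these that were tested, the median log2 fold change was -0.11, with 8.17% called higher and 23.2% called lower. In the 91 whose RefSeq span was under 300 kb the median was -0.02, with 8.79% higher and 18.7% lower. None of the 6 tested genes with a deposited span over 3 Mb was called by edgeR or DESeq2, and 0 had an unadjusted p under 0.05 in edgeR, NDUFA10 being at 112, 108 and 115 CPM in control and 110, 110 and 113 CPM in 4HC.

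The median was lower in each longer class of span over the whole range of genes. In genes under 10 kb (n = 1940) the median log2 fold change was 0.04, with 22.6% called higher and 13.8% called lower. It was 0.01 at 10 to 30 kb (n = 3280) and within 0.01 of 0 at 30 to 100 kb (n = 3952), where the sign depended on the scaling. At 100 to 300 kb (n = 1943) it was -0.01, with 14.9% higher and 16.9% lower, and scaling by library size alone turned it to 0.01.

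Within the long genes the shift grew with each class of span. In the 317 genes of 300 to 500 kb the median was -0.07, with 9.46% called higher and 18.6% lower. In the 170 genes of 500 to 1000 kb it was -0.10, with 8.24% higher and 25.3% lower. In the 57 genes of 1000 kb or more it was -0.28, with 1.75% higher and 35.1% lower, and 87.7% of these genes had a negative value. Their signs held under all 4 scalings tried. With RefSeq spans the longest class held 45 genes, 44 of them also long as deposited, with a median of -0.33, 2.22% higher and 44.4% lower. The plot of fold change by span class shows the shares of higher and lower genes crossing between 30 and 300 kb.

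**Figure D1:**
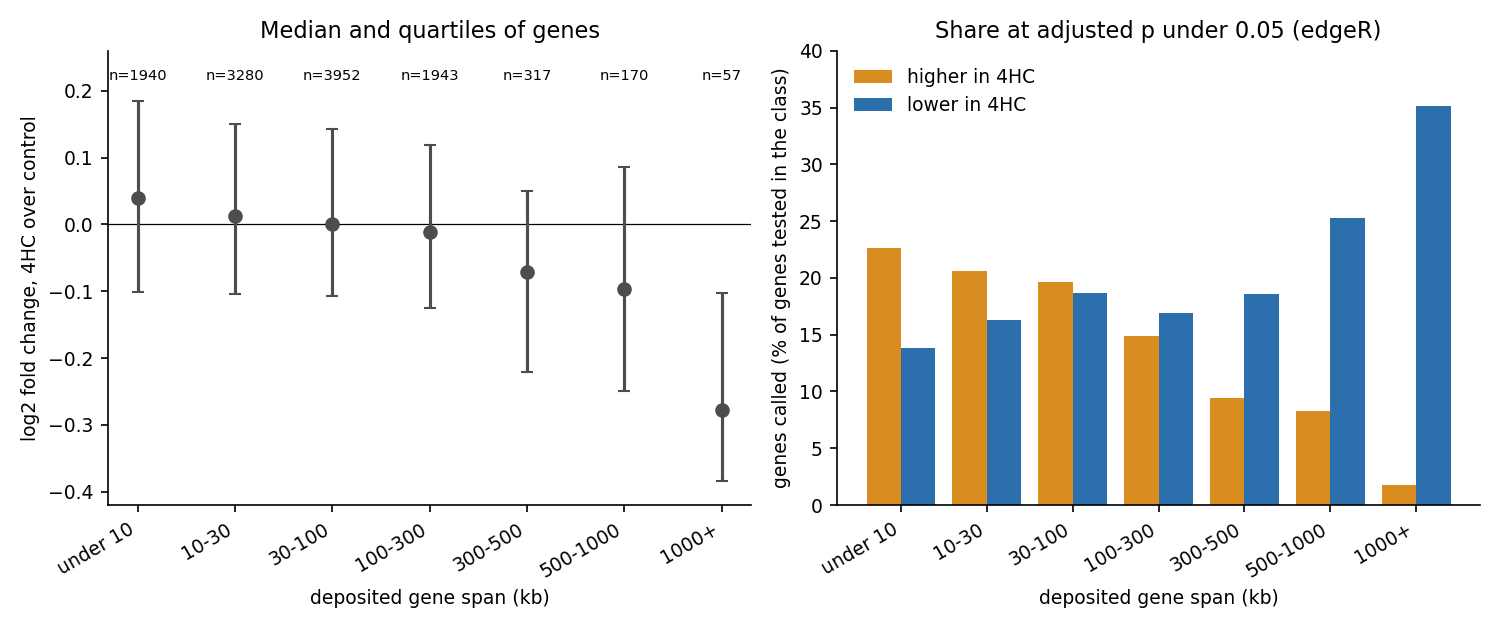
Left, median log2 fold change (4HC over control) of the genes in each class of deposited span in kb, with bars from the lower to the upper quartile of genes and the number of genes tested above. Right, the percent of genes in each class called higher or lower at an edgeR adjusted p under 0.05, with 22.6% higher and 13.8% lower under 10 kb and 1.75% higher and 35.1% lower at 1000 kb or more.

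The same order was seen in each treated sample. The median over genes of log2(CPM + 0.5), taken relative to the control mean of each gene, was 0.01 in all 3 4HC samples for genes under 300 kb. For genes of 300 to 500 kb it was -0.07, -0.07 and -0.05 in the 4HC samples, and for 500 to 1000 kb it was -0.09, -0.10 and -0.08. For genes of 1000 kb or more it was -0.21, -0.23 and -0.16 in 4HC, while the 3 controls lay at -0.01, -0.01 and 0.02. In these 3 classes every 4HC sample was below every control sample, and the third 4HC replicate was the nearest to the controls. With 3 against 3 samples an exact permutation test cannot give a two-sided p under 0.1, and none is reported.

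**Figure D2:**
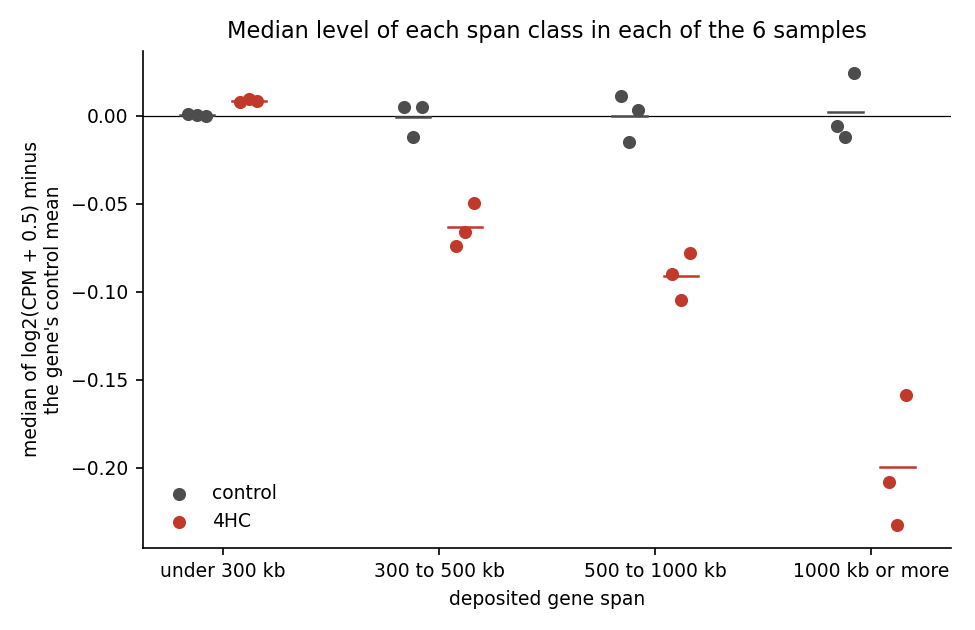
Median over genes of log2(CPM + 0.5) minus the control mean of the gene, for each of the 3 control and 3 4HC samples (points, with a line at the mean of the 3), in 4 classes of deposited span. The 4HC samples are at 0.01 for genes under 300 kb and between -0.23 and -0.16 for genes of 1000 kb or more.

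Long genes had lower counts than other genes, with a median control level of 13.9 CPM against 34.4 CPM for shorter genes, so they were set against shorter genes in 5 classes of control CPM. Below 1 CPM a gene could pass the filter on low counts through the samples of 1 group alone, either control or 4HC. The medians there, -0.15 in 49 long genes and 0.20 in 502 shorter genes, were therefore left out of the comparison. From 1 to 5 CPM the median log2 fold change was -0.21 in 125 long genes and 0.08 in 1309 shorter genes. From 5 to 20 CPM it was -0.07 in 141 long genes and 0.07 in 2164 shorter genes. The gap was smallest from 20 to 100 CPM, at -0.04 in 166 long genes and 0.01 in 5101 shorter genes. At 100 CPM or more both were below 0, with -0.16 in 63 long genes and -0.06 in 2039 shorter genes. The sign of each of these medians held under the 4 scalings, and in the 4 classes from 1 CPM upwards the long genes had the lower median.

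The calls followed the same classes. From 1 to 5 CPM, 8.8% of long genes were called lower against 3.21% of shorter genes, and 2.4% were called higher against 13.8%. From 5 to 20 CPM, 22.0% of long genes were called lower against 7.49% of shorter genes, and 7.09% were called higher against 23.2%. The shares were closer from 20 to 100 CPM, the class with the most long genes, at 22.9% against 16.8% lower and 15.7% against 21.8% higher. At 100 CPM or more, where counting error is smallest, 65.1% of long genes were called lower against 39.3% of shorter genes, and 6.35% were called higher against 15.1%. Transcript length was not the same in the 2 kinds of gene, as the median mature length implied by the deposited counts and FPKM values was 5250 bases in long genes and 2884 bases in shorter genes. In all 6 classes of mature transcript length the median of long genes was below that of shorter genes, by 0.04 to 0.11 on the log2 scale. In the neighbouring classes with 52, 107 and 134 long genes, however, the share called lower was close to that of shorter genes. It was 15.4%, 17.8% and 20.9% in long genes against 15.5%, 17.6% and 22.0%. In the classes with 26, 145 and 80 long genes it was 19.2%, 28.3% and 26.2% against 10.2%, 20.8% and 18.5%. In each of the 6 classes a smaller share of long genes than of shorter genes was called higher.

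**Figure D3:**
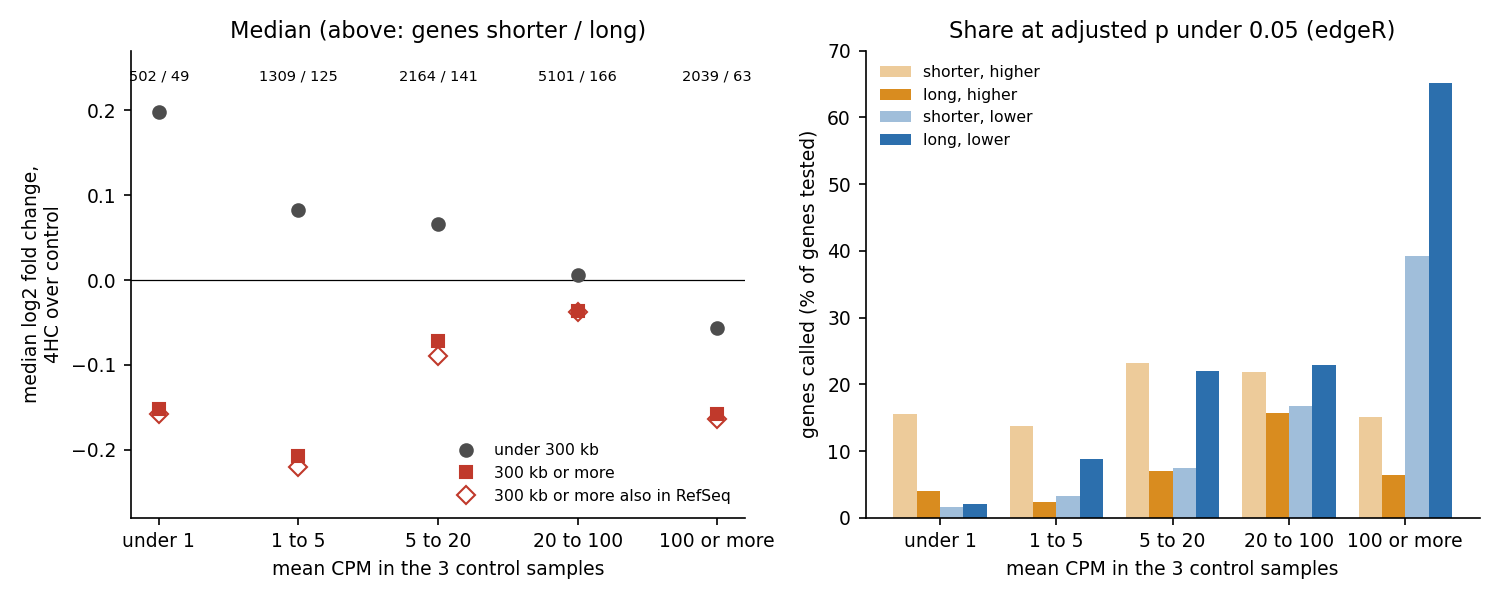
Left, median log2 fold change of long genes (squares), of long genes whose RefSeq span is also 300 kb or more (diamonds) and of genes under 300 kb (circles) by mean control CPM, with the numbers of shorter and long genes above, where the class under 1 CPM is shaped by the filter on low counts. Right, the percent called higher or lower at an edgeR adjusted p under 0.05, with 65.1% of long genes against 39.3% of shorter genes called lower at 100 CPM or more.

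As a description across genes, which share their libraries and are not replicates, Spearman's rank correlation between span and log2 fold change was -0.10 over 11659 tested genes and -0.20 over the 544 long genes. For comparison, it was -0.20 between control CPM and log2 fold change and -0.11 between transcript length and log2 fold change over the same 11659 genes, while between control CPM and log2 fold change it was 0.14 over the 544 long genes alone. The same correlation of span with the deviations of single samples from the control means had an SD of 0.103 between the samples of a group. The -0.10 over all genes was no larger than that SD. The SD is for single samples and the -0.10 compares 3 samples with 3, so they are not like quantities. Leaving out 1 sample gave a correlation of -0.126 to -0.079 over all genes. Span and transcript length were themselves related, with a rank correlation of 0.53.

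The most abundant long genes were lower in 4HC. Of the 63 long genes of 100 CPM or more in control, 65.1% were called lower and 6.35% higher. In shorter genes of that level these shares were 39.3% and 15.1%. The 5 long genes with the most counts in control were MACF1, SYNE2, ADGRL2, PCDH9 and ROBO1, and all 5 fell. ADGRL2, a latrophilin of the adhesion receptor class on chr1:81306104-82033721, was at 1495, 1399 and 1462 CPM in control and 1010, 1065 and 1111 CPM in 4HC. Its log2 fold change was -0.45 (SE 0.03, edgeR adjusted p = 4.0e-17), the strongest fall of the 5. ROBO1 was at 876, 888 and 885 CPM in control and 687, 669 and 711 CPM in 4HC, with a log2 fold change of -0.36 (SE 0.03, edgeR adjusted p = 3.6e-14). PCDH9, a protocadherin, was at 1173 ± 37.6 CPM in control and 962 ± 26.8 CPM in 4HC (mean ± SD, n = 3), a log2 fold change of -0.29. None of these groups overlapped.

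The giant cytoskeletal linkers had smaller fold changes. MACF1, which crosslinks actin to microtubules, was at 2046, 1953 and 1986 CPM in control and 1689, 1658 and 1748 CPM in 4HC, which is a log2 fold change of -0.23. SYNE2, a nesprin that ties the nucleus to the cytoskeleton, was at 1480 ± 52.6 CPM in control and 1288 ± 20.1 CPM in 4HC, which is a log2 fold change of -0.20 (edgeR adjusted p = 3.0e-07). Control and 4HC samples were separate for both.

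Among genes of 5 CPM or more, the largest falls included GRIP1, ZBTB20, EPHA6, RELN, PCDH15, ULK4 and GPR158, and each of these had a RefSeq span over 300 kb. RELN, a secreted matrix glycoprotein that guides migrating neurons (chr7:103471789-103989658), was at 14.4, 14.6 and 14.7 CPM in control and 9.23, 9.74 and 10.2 CPM in 4HC. The difference of -0.59 on the log2 scale (SE 0.09, edgeR adjusted p = 8.7e-07) was many times the spread within either group. EPHA6 was at 10.8, 9.48 and 8.08 CPM in control and 5.85, 6.54 and 6.24 CPM in 4HC, with the controls spread more widely than the treated samples.

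GRIP1, a scaffold that anchors glutamate receptors, had the largest fall of these, from 5.14 ± 0.346 CPM to 3.10 ± 0.395 CPM and a log2 fold change of -0.73 (edgeR adjusted p = 2.2e-04). ZBTB20, a zinc finger repressor, was at 10.4, 6.95 and 8.63 CPM in control and 5.01, 4.93 and 6.24 CPM in 4HC, so its groups came close, and its call (by edgeR and DESeq2) was lost in all 3 fits of limma, at adjusted p-values of 0.11, 0.088 and 0.14 on log2(TPM + 1), log2(TPM + 0.1) and log2(FPKM + 1). PCDH15, a protocadherin of the hair cell, fell by 0.56, ULK4, a pseudokinase, by 0.54 and GPR158, an orphan receptor, by 0.52 on the log2 scale. The call of GPR158 (edgeR adjusted p = 0.0065) was lost without the first 4HC replicate, at an edgeR adjusted p of 0.068 and a log2 fold change of -0.39.

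Of the 8 largest rises, ASTN2 stood first. It was at 34.7, 35.1 and 36.6 CPM in control and 59.9, 63.6 and 64.6 CPM in 4HC, which is a log2 fold change of 0.82 (SE 0.05, edgeR adjusted p = 1.3e-18). Its span of 992 kb was close to that of PCDH9, at 978 kb, which fell. DIAPH3, with a RefSeq span of 498 kb, was at 52.9, 48.9 and 51.4 CPM in control and 75.7, 73.6 and 74.6 CPM in 4HC, which is a log2 fold change of 0.55 (SE 0.05, edgeR adjusted p = 1.1e-13).

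A pair of genome maintenance genes among the rises were not long in RefSeq. ATAD5, which unloads the PCNA clamp from DNA, had a deposited span of 422 kb and a RefSeq span of 63.9 kb, and was at 31.7, 26.0 and 25.8 CPM in control and 39.8, 41.1 and 43.5 CPM in 4HC. REV3L, the catalytic subunit of the translesion polymerase zeta, had spans of 304 and 185 kb, and was at 48.8, 45.1 and 50.3 CPM in control and 67.7, 70.7 and 72.6 CPM in 4HC. Their log2 fold changes were 0.58 and 0.55. The other rises were ARHGAP10 at 0.51, GRID1 at 0.45, COBL at 0.43 and SUGCT at 0.42 on the log2 scale, all with 4.14 to 8.66 CPM in control. The call was lost for GRID1 without control replicate 3 (edgeR adjusted p = 0.069) or the second 4HC replicate (0.069), for SUGCT without the first control (0.052), and for COBL without control replicate 2 or 3 (0.070 and 0.060) or the first 4HC replicate (0.15). DESeq2 did not call GRID1 (adjusted p = 0.070) or COBL (0.083), and limma did not call COBL on any of its 3 scales (adjusted p 0.069 to 0.096). Of the 44 tested members with a RefSeq span of 1 Mb or more, 40 had a negative value. KAZN, at 0.48, was the only one of the 44 called higher by edgeR, and it was named after its values were seen.

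**Figure D4:**
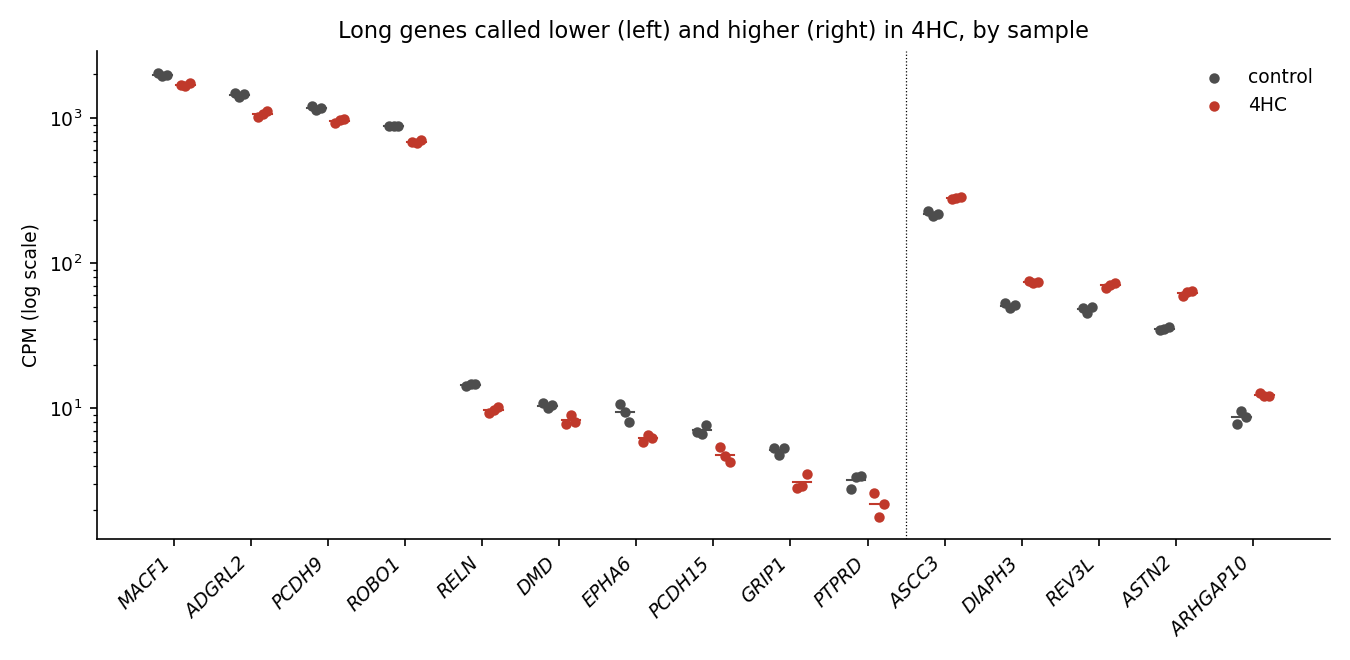
TMM-normalized CPM on a log scale of 15 long genes in the 3 control and 3 4HC samples (points, with a line at the mean of the 3). The 10 genes on the left were called lower and the 5 on the right higher, and in each of them the control and 4HC samples did not overlap, as for ASTN2 at 34.7 to 36.6 CPM in control and 59.9 to 64.6 CPM in 4HC.

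The 5 longest tested genes by RefSeq span, also named after their values were seen, were PTPRD, DMD, DLG2, CSMD1 and MACROD2, all above 2 Mb. DMD, which encodes dystrophin, was at 10.8, 10.0 and 10.5 CPM in control and 7.85, 8.94 and 8.08 CPM in 4HC, which is a log2 fold change of -0.34 (SE 0.10, edgeR adjusted p = 0.0091). PTPRD, a receptor tyrosine phosphatase of 2.30 Mb, was at 2.77, 3.38 and 3.44 CPM in control and 2.60, 1.79 and 2.20 CPM in 4HC, which is a log2 fold change of -0.54 (edgeR adjusted p = 0.025). DLG2, a synaptic scaffold, fell by 0.28 on the log2 scale (edgeR adjusted p = 0.044). CSMD1 had a log2 fold change of -0.38 and was not called (edgeR adjusted p = 0.23), although its 4HC samples, at 1.22 to 1.45 CPM, all lay below its controls at 1.51 to 2.03 CPM. In the shallowest library 1 CPM corresponds to 16.1 reads, so counting error was large for CSMD1 and MACROD2. The call of PTPRD was lost without control replicate 2 or 3 or 4HC replicate 2 (edgeR adjusted p up to 0.14), that of DLG2 without replicate 1 or 2 of either group (up to 0.15) and that of MACROD2 without replicate 1 of either group (up to 0.070). DESeq2 did not call PTPRD (adjusted p = 0.11), DLG2 (0.14) or DMD (0.050), and limma on log2(TPM + 1) did not call PTPRD (0.14), DLG2 (0.070) or MACROD2 (0.068).

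The genes past a fold change of 2 were all near the floor of detection, and with at least 10 counts required in every sample 2 passed, PTPRM among them. PTPRM, a receptor tyrosine phosphatase, fell from 1.47 ± 0.0474 to 0.713 ± 0.127 CPM, a call not made by limma on log2(TPM + 1) (adjusted p = 0.11). MACROD2, an ADP-ribose hydrolase, was at 1.00 ± 0.103 CPM in control and 0.489 ± 0.00533 CPM in 4HC and passed the filter on low counts only through its controls. CELF4, an RNA-binding protein, at 0.367 ± 0.0574 CPM in control and 0.895 ± 0.148 CPM in 4HC, and ACOXL, an acyl-CoA oxidase-like protein, at 0.491 ± 0.271 and 1.12 ± 0.168 CPM, passed it only through their 4HC samples. A gene that enters through 1 group has to differ, so the calls of these 3 genes support nothing. ACOXL lost its call without control replicate 3, at a log2 fold change of 0.78 and an edgeR adjusted p of 0.10. Among the 370 tested long genes at 5 CPM or more in control the largest log2 fold change in either direction was the 0.82 of ASTN2.

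Lists of roles were compiled by hand, overlap, and differ in span and control level, and they were not tested against each other. Their shares are set beside the 17.1% called lower and 19.2% called higher of all genes tested, and their medians beside those of the shorter genes of the same list. Of 76 long genes of cell adhesion and axon guidance, 47 were tested, 14 fell (29.8%) and 1, ASTN2, rose (2.13%), and the median log2 fold change was -0.29 against -0.12 in the 21 shorter members. Of 63 long genes for ion channels, neurotransmitter receptors and their scaffolds, 33 were tested, 13 fell (39.4%) and 1, GRID1, rose (3.03%), the latter by edgeR and not by DESeq2, with a median of -0.22 against -0.15 in 11 shorter members. Of 12 tested long receptor tyrosine phosphatases and kinases, 5 fell (41.7%), 3 of them also by DESeq2, and none rose by either tool or at an unadjusted p under 0.05 in edgeR, with a median of -0.30 against 0.13 in 13 shorter members. The scaffold DLGAP1 fell by 0.92 and the kainate receptor GRIK2 by 0.66 on the log2 scale, from 1.12 and 2.55 CPM. The call of DLGAP1 was lost without control replicate 2 or 4HC replicate 1 or 3 (edgeR adjusted p up to 0.098) and that of GRIK2 without 4HC replicate 1 (0.11). DESeq2 did not call GRIK2 (adjusted p = 0.077), and limma on log2(TPM + 1) did not call DLGAP1 (0.16).

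Of 54 tested long genes of transcription and chromatin, 18 fell (33.3%) and 2, CELF4 among them, were called higher (3.7%), with a median of -0.15 against -0.04 in 119 shorter members, and KHDRBS2, an RNA-binding splicing factor, fell by 0.78, a call lost without control replicate 3 or 4HC replicate 1 or 2 (edgeR adjusted p up to 0.082) and not made by DESeq2 (adjusted p = 0.076). Of 37 tested cytoskeleton and motor genes, 11 fell (29.7%) and 5 rose (13.5%), with a median of -0.09 against -0.03 in 59 shorter members. TNS3, a focal adhesion protein, fell from 7.97 ± 0.542 to 5.97 ± 0.145 CPM, while PALLD, an actin scaffold, rose from 36.0 ± 1.55 to 47.2 ± 1.71 CPM. Of 21 tested genes of matrix and glycan chains, 8 fell (38.1%). None rose by edgeR at an adjusted or unadjusted p under 0.05 or by DESeq2. The median was -0.10 against 0.01 in 46 shorter members. GALNT17 and THSD7A fell by 0.42 and 0.33. Of 39 tested phosphodiesterases and signalling kinases, 6 fell and 2 rose, with a median of -0.08 against 0.01 in 101 shorter members. The shares of these long genes, 15.4% lower and 5.13% higher, were both below those of all genes tested. Of 16 tested ubiquitin and turnover genes 1 was called, as lower (6.25%). The median was -0.02 against -0.03 in 128 shorter members, of which 34 were called lower and 21 higher. In this list the long genes did not have the lower median.

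Of 49 long regulators of small GTPases 39 were tested, 9 rose and 3 fell. The 23.1% that rose lay near the 19.2% of all genes tested and the 7.69% that fell below the 17.1%, and the median was 0.02 against -0.06 in 49 shorter members. DOCK3, a guanine nucleotide exchange factor for Rac with a span of 710 kb, was at 55.1, 51.0 and 51.3 CPM in control and 68.1, 64.7 and 68.6 CPM in 4HC, which is a log2 fold change of 0.36 (SE 0.05, edgeR adjusted p = 5.3e-08). ARHGAP10, a GTPase-activating protein, was at 7.77, 9.54 and 8.69 CPM in control and 12.7, 12.2 and 12.2 CPM in 4HC. DIAPH3 counted in this list too. The difference between this list and the other long genes was not tested.

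Of 46 long genes at common fragile sites, 31 were tested, 11 fell (35.5%) by edgeR and 5 by DESeq2, and 28 of the 31 had a negative value, with a median of -0.26. None rose by either tool or at an unadjusted p under 0.05 in edgeR. DMD, DLG2 and THSD7A were among those that fell, and MACROD2 was counted with them. Only 1 shorter gene of the list was tested, so the site and the length cannot be told apart.

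Only 2 of a list of p53 targets were long, and both rose. Besides ASTN2, ASCC3, a helicase that takes part in repair of alkylated DNA, was at 229, 211 and 219 CPM in control and 276, 282 and 287 CPM in 4HC, which is a log2 fold change of 0.36 (SE 0.04, edgeR adjusted p = 4.0e-12). Of the 87 tested p53 targets under 300 kb, 77 rose and the median was 0.64.

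Just inside the threshold of 300 kb, MYO9A, an unconventional myosin of 300.203 kb, was at 47.8 ± 1.83 CPM in control and 45.4 ± 3.57 CPM in 4HC, and EOLA2 at 44.0 ± 0.171 and 40.5 ± 0.781 CPM. Just outside it, FBXO11, a ubiquitin ligase subunit, had a log2 fold change of -0.13 and was called lower (edgeR adjusted p = 0.0099), a call lost without control replicate 3 (0.052) or 4HC replicate 2 (0.069), and KIAA1549L had one of 0.17 and was not called. The RefSeq spans of EOLA2 and FBXO11 were 8.96 and 99.6 kb.

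At the level of transcripts, whose counts are estimates because most reads of a gene are shared, 2159 transcripts of long genes were tested. Of these, 2 were called higher and 9 lower, or 0.0926% and 0.417%, against 0.706% and 0.587% of all 42216 transcripts tested, and the median log2 fold change was -0.08 against 0.00. The 9 were 3 transcripts of ADGRL2 and 1 each of ROBO1, MAML2, PDZRN4, ATXN7L3B, FOCAD and MACF1, and the 2 were of CERS6 and TBC1D5, named after their values were seen. Without any single library at most 4 of the lower calls and 0 of the higher ones were made by edgeR. The ROBO1 transcript was at 57.7, 58.2 and 69.3 CPM in control and 18.9, 15.6 and 27.7 CPM in 4HC, a larger fall than that of the gene as a whole. The TBC1D5 transcript was at 0 CPM in all 3 controls and at 2.93, 2.85 and 3.03 CPM in 4HC. It passed the filter on low counts only through its 4HC samples and so had to differ, and its call supports nothing. TBC1D5 as a whole gene had a log2 fold change of -0.07 and was not called (edgeR adjusted p = 0.16).

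A gene with a long locus can also have short transcripts. Of the long genes' transcripts, 768 were matched to a span in GENCODE release 29. The median log2 fold change was -0.04 in 126 transcripts that themselves spanned under 100 kb, -0.05 in 201 of 100 to 300 kb, -0.11 in 426 of 300 to 1000 kb and -0.22 in 15 of 1000 kb or more. Within the 18 genes that had both kinds, however, the order was not kept, with -0.18 in 23 transcripts under 100 kb and -0.12 in 41 transcripts of 300 kb or more and edgeR called none of them, with 3 higher and 6 lower at an unadjusted p under 0.05. In ASTN2 the transcript of 76.3 kb was at 12.1, 11.7 and 10.5 CPM in control and 11.8, 12.2 and 12.5 CPM in 4HC, while a transcript of 990 kb was at 2.86, 3.09 and 3.17 CPM in control and 5.67, 5.58 and 5.12 CPM in 4HC. Neither was called at an adjusted p under 0.05 (0.97 and 0.19 by edgeR).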

How the data were processed

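Total RNA of COV434 cells, 3 control and 3 4HC samples, was sequenced, and groups were taken from the sample titles. The authors filtered reads with SOAPnuke and used the Dr. Tom system. The submitters' processing notes name HISAT2, Bowtie2, RSEM 1.3.1, DESeq2 1.4.5 and GRCh38.p13, without their roles. The authors deposited expected counts of genes and transcripts, which are estimated and not normalized, with TPM and FPKM values that they scaled to length and depth. The authors' own fold changes, p-values and q-values in the same table were not used, and 0 columns of per-sample values were left unassigned.

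The long genes, the lists of roles and the tests were chosen with earlier results of these data known. Rounded expected counts entered edgeR 4.0.16 (R 4.3.3; TMM, filterByExpr, quasi-likelihood test, condition as the only term), with Benjamini-Hochberg adjustment over all 12368 genes or, separately, 42216 transcripts. The test was first run on simulated data. CPM values are TMM-normalized. Spans and promoters were compared with RefSeq GRCh38.p14 by gene number, and 685 of the 821 long genes had a promoter sequence. Transcript spans came from GENCODE release 29. The deposited coordinates of some genes were far from those of RefSeq, so membership by RefSeq span was added as an alternative after the values were seen.

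Named genes were the 8 largest rises and falls among called long genes whose mean reached 5 CPM in a group and whose samples did not overlap, the 5 of longest deposited span (NDUFA10, VAMP7, SPRY3, IL9R and LOC100652777, none called), the 5 of most counts in control, the 2 on either side of 300 kb, up to 3 called genes of each list and those past a fold change of 2. Some genes that this rule names are not reported here. Alternatives were DESeq2 1.42.0, other scalings and filters, limma 3.58.1 on log2 TPM (pseudocount 1 or 0.1) and log2 FPKM (pseudocount 1), other span limits, the replicate number as a block and the removal of each sample. Same-numbered control and 4HC samples did not deviate together (correlations of 0.00866, 0.0694 and 0.0302), so the numbers were not taken as pairs. Tables and figures were made in Python 3.11.15 (pandas 2.3.3, matplotlib 3.10.9). Depth was 16133786 to 16702316 counts per sample.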

Additional observations from a re-analysis of the deposited data

How the results depend on the processing

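The counts of long genes called lower and the negative median kept their direction in every alternative run, and the size moved with the scale and the span limit. By DESeq2, 29 long genes were called higher. The median log2 fold change of long genes was -0.071 with library size as the only scaling, and the difference from shorter genes was -0.084 with no filter. With limma on log2(TPM + 1) the median was -0.058 and the difference -0.055, and on log2(FPKM + 1) they were -0.035 and -0.054 with 78 genes called lower, on scales that understate the change of low genes. The number of long genes past a fold change of 2 was 18 with no filter, 2 with at least 10 counts in every sample, 1 on log2(TPM + 0.1), and 0 on log2(TPM + 1), log2(FPKM + 1) and at a control CPM of 5 or more, where the median and the difference were -0.067 and -0.067. For a span of 200000 bases or more, 112 genes were called higher and 204 lower, 9 passed a fold change of 2, and the median and difference were -0.057 and -0.066. For 500000 bases these were 15, 63, 3, -0.14 and -0.15, and for 1000000 bases 1, 20, 2, -0.28 and -0.28. With RefSeq spans, added after the values were seen, the median was -0.11 and the difference -0.12.

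Leaving out 1 sample gave 40 to 44 long genes higher, 99 to 122 lower and 6 to 9 past a fold change of 2, with a median of -0.106 to -0.080 and a difference of -0.113 to -0.087. The replicate number as a block gave 43 higher and 114 lower. Among named genes it ended only the call of DLG2 (edgeR adjusted p = 0.062), and the numbers are not known to pair the samples. For transcripts, at least 10 counts in every sample gave 8 higher and 18 lower, while leaving out 1 sample gave 0 higher and 0 to 4 lower. Of 51 named genes none of the 42 called ones changed sign, and 15 of them lost the call without some sample. IL9R was called without 4HC replicate 3 alone (log2 fold change -0.48, edgeR adjusted p = 0.049). The sign turned for uncalled genes near 0. NDUFA10 was at 0.010 with library size only, 0.025 on log2(FPKM + 1) and -0.034 to 0.0095 when 1 sample was left out. SPRY3 was at 0.018 and 0.0036 in the first 2 of these and at -0.13 to 0.15 in the last. KIAA1549L was at -0.078 to 0.33 when 1 sample was left out. The cause of these differences was not tested. Depth limited genes near 1 CPM, where 1 CPM was 16.1 reads in the shallowest library, and groups of 3 were too small for a check of outlying samples.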
